A study of Mus musculus with 550 samples.

Results

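The kidney response to monoethyl fumarate (MEF) salts given on top of dimethyl fumarate (DMF) was measured as the difference between kidneys of mice dosed with both and kidneys of mice dosed with DMF alone. Its arrays were chosen by organ and by the treatment and time in the sample titles, which gave 25 arrays of the 77 kidney arrays and of the 550 arrays of the series. The difference was taken within 6 h and within 12 h of the dose and then averaged over both times. All 17097 genes were used, each by 1 probe set.

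The series measured gene expression in 7 organs of C57BL/6 mice after a single acute dose, 1 array per animal and organ. The mice with both agents (DMF+MEF) received DMF at 100 mg/kg and mixed calcium, magnesium and zinc salts of MEF at 79.2 mg/kg, and 7 kidneys were collected at 6 h and 4 at 12 h. The mice with DMF alone (DMF 100) received DMF at 100 mg/kg, and 8 kidneys were collected at 6 h and 6 at 12 h. Other kidney groups were MEF salts alone at 79.2 mg/kg (8 and 7 kidneys), DMF alone at 179.2 mg/kg (8 at each time), the vehicle, hydroxypropyl methylcellulose at 0.8% (7 and 8), and undosed mice at 12 h (6). The source names of the DMF+MEF kidneys gave only the DMF dose, so their MEF dose rests on the titles, and the series description does not list the kidney among its tissues. The labels gave no sex, age or genotype beyond the strain, and gave an animal number for each array, so the spread between arrays is that between animals. The number of arrays limits the precision, most of all at 12 h.

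Fumaric acid esters are electrophiles that react with cysteines of KEAP1, the protein that marks the transcription factor NRF2 for degradation. Freed NRF2 binds antioxidant response elements and raises genes of glutathione synthesis, NADPH supply, quinone and carbonyl reduction and export of conjugates. DMF has both acid groups of fumaric acid as methyl esters, while MEF has an ethyl ester on one and leaves the other free to form a salt. In the kidney the proximal tubule takes up organic acids from the blood and is a main site of such detoxification, and zinc, one of the cations of the salts, is a known inducer of metallothionein genes.

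The kidney label held against its markers. Of 16 measured proximal tubule markers, 14 had mean levels between 9.32 and 13.42 on the log2 scale, against a median of 5.95 over all genes, while Pck1 was at 4.20 and Slc7a13 at 3.81. Lists of markers of other tissues were mixed on the 77 kidney arrays. Cpb1 of the pancreas and Ncr1 of natural killer cells were at the floor of the scale on 77, and Cyp11b2 of the adrenal gland and Mmp8 of neutrophils on 76. Other members of the same lists were measured well above it, with mean levels of 10.40 for Cela1 (pancreas list), 9.18 for Hsd3b6 and 5.95 for Cyp21a1 (adrenal list), 5.79 for Cd8a (lymphocyte list) and 5.72 for S100a9 (neutrophil list). The vehicle kidney of animal 2 at 12 h stood apart, with a mean of the 12 adrenal markers of 6.80, against 3.54 to 4.06 in the other vehicle kidneys of that time. No kidney array was a copy of another. A separate trait of these arrays is where the animal number falls when numbers are counted off by 12 (its place), starting from 51 at 6 h and from 1 at 12 h. Levels of the splicing regulator gene Tra2b are shown by place below, and no test of their change with place is given. DMF+MEF animals held places 1, 3, 4 and 9 to 12 at 6 h and only places 9 to 12 at 12 h. DMF 100 animals held places 1 to 4 and 9 to 12 at 6 h and 1, 3 and 9 to 12 at 12 h. What the places stand for is not given in the sources used here, so main results are also given for places 9 to 12 alone, where each group had 4 animals at each time.

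Adding MEF salts moved 760 genes past the threshold of limma's moderated test (Benjamini-Hochberg adjusted p below 0.05 over all genes), 4.45% of those tested, with 369 higher (2.16%) and 391 lower (2.29%). A gene past this threshold is said to be called, and only called genes are said to have risen or fallen. Before adjustment 2866 genes had a p below 0.05. Most changes were small: the median size among the called genes was 0.20 on the log2 scale, 29 differed by more than 1.5-fold, and 4 by more than 2-fold in either direction, all 4 higher. The estimate had the same sign at both times for 721 of the 760, and 674 had a mean level above the median of all genes. A further quantile normalization gave 509 higher and 295 lower, with the median of all genes at 0.00 before and after, so the balance of the directions depends on that step.

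The 4 genes past 2-fold were Ugt2b5, Cbr3, Hmox1 and Gstm3. Ugt2b5, which encodes a UDP-glucuronosyltransferase that couples glucuronic acid to lipophilic compounds, was chosen for mention after its values had been seen, because its mean level of 5.13 lies below the median of all genes. Its level at 6 h ran from 5.92 over a median of 7.34 to 8.07 with DMF+MEF, against 4.58, 5.49 and 6.59 with DMF 100. The 12 h levels were 6.78, 6.25, 7.54 and 6.97 with DMF+MEF, against 3.48 to 4.49 with DMF 100. The groups overlapped at 6 h and stood fully apart at 12 h. The rise over both times was 2.28 ± 0.23 (log2 change ± standard error of the model, here and below), a 4.86-fold difference (adjusted p = 2.91e-11, limma), and 2.13 within places 9 to 12. Mouse Ugt2b genes are close paralogs, and how far the probe set separates them is not given in the sources used here.

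NRF2 targets led the rest of the rise. Of 34 measured genes of the NRF2 list 20 were called higher and 0 lower, beside 2.16% of all genes called higher, and the median change of the list was 0.25, against 0.00 over all genes. At 6 h and at 12 h 16 of the 34 were called higher (medians of 0.23 and 0.25), beside 0.971% and 2.19% of all genes. Every DMF+MEF array lay above every DMF 100 array for 7 of the 34 at 6 h and for 15 at 12 h, beside 0.298% and 1.70% of all genes.

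Cbr3, a carbonyl reductase gene, had levels at 6 h from 9.91 over a median of 10.10 to 10.43 with DMF+MEF, against 9.04, 9.39 and 9.71 with DMF 100. Its 12 h levels were 8.29, 8.22, 8.83 and 8.43 with DMF+MEF, against 6.25, 6.71 and 7.24 with DMF 100. The groups did not overlap at either time, and the gap was wider at 12 h. Over both times Cbr3 rose by 1.25 ± 0.10, a 2.37-fold difference with a 95% interval of 1.04 to 1.45 on the log2 scale (adjusted p = 1.3e-14). The rise was 0.74 ± 0.13 at 6 h and 1.75 ± 0.16 at 12 h, and the later one was larger by 1.01 ± 0.20 (adjusted p = 0.00347). Within places 9 to 12 the change over both times was 1.29.

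The promoter of Cbr3 is shown because the gene had the largest change among members of the response lists with an entry in the promoter table, which has none for Hmox1. The window runs from 250 bases before to 50 bases after the annotated start of the gene, chr16:93682969-93683268 on the plus strand (RefSeq, build GRCm38.p6). Short motifs were searched on both strands: TGACNNNGC, the core of the antioxidant response element, TGATGCAA, the C/EBP-ATF response element, TGCNCNC, the core of the metal response element, and GAANNTTC, a unit of the heat shock element. Capitals mark matches to any of them.
Cbr3 promoter: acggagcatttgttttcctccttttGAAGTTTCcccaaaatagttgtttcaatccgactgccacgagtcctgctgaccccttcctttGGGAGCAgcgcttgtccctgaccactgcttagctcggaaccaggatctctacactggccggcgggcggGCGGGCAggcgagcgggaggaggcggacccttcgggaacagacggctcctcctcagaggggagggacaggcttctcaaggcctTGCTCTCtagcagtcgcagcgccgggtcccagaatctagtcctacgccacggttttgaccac

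In this window the letters of the antioxidant core and of the C/EBP-ATF element were not found. The marked letters are 1 heat shock unit, whose first base lies 225 bases before the start, and 3 metal response cores, at 163, 95 and 12 bases before it, none overlapping another. Of all 32851 such windows, 12.4% hold the antioxidant core, 0.895% the C/EBP-ATF element, 16765 of them the metal core and 7.86% the heat shock unit. Of the 34 NRF2 genes 29 had a window and 6 of those held the antioxidant core, among them 3 of the 17 windows of genes called higher. The windows of Gstm3 and Aldh1a7 held none of the motifs.

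Hmox1, the gene for the inducible heme oxygenase that breaks down heme, had levels at 6 h from 11.92 over a median of 12.19 to 12.49 with DMF+MEF, against 9.17, 10.40 and 11.75 with DMF 100. By 12 h the levels were 7.63, 7.58, 7.91 and 8.11 with DMF+MEF, against 6.98, 7.24 and 7.51 with DMF 100. The DMF+MEF arrays were the higher ones at both times without overlap; the DMF 100 animals at 6 h were the most spread of the 4 groups. Hmox1 rose by 1.19 ± 0.16 over both times (2.28-fold, adjusted p = 2.82e-07), with 1.81 ± 0.20 at 6 h (adjusted p = 4.63e-09) and 0.56 ± 0.25 at 12 h (adjusted p = 0.237). The 12 h change minus the 6 h change of Hmox1 was -1.25 ± 0.32 (adjusted p = 0.0376), opposite in sign to that of Cbr3. That time difference lost its call in a fit of only the groups compared (adjusted p = 0.2).

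Srxn1, which encodes sulfiredoxin, the enzyme that restores overoxidised peroxiredoxins, had levels at 6 h from 11.77 over a median of 12.01 to 12.37 with DMF+MEF, against 11.05, 11.32 and 11.94 with DMF 100. At the later time its levels were 10.72, 10.62, 10.84 and 10.77 with DMF+MEF, against 9.96, 10.13 and 10.32 with DMF 100. Only at 6 h did the groups overlap. The rise over both times was 0.64 ± 0.06 (adjusted p = 1.07e-11), with 0.69 ± 0.08 at 6 h and 0.59 ± 0.10 at 12 h.

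Both subunits of glutamate-cysteine ligase, the rate-limiting enzyme of glutathione synthesis, were among the called genes. The modifier subunit gene Gclm had levels from 11.08 over a median of 11.17 to 11.37 with DMF+MEF at 6 h, against 10.65, 10.74 and 11.06 with DMF 100. At 12 h its levels were 10.04, 9.92, 10.26 and 9.99 with DMF+MEF, against 9.28, 9.42 and 9.62 with DMF 100. No DMF+MEF array of Gclm reached down to a DMF 100 array at either time, and it rose by 0.51 ± 0.04 (1.43-fold, adjusted p = 1.3e-14).

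The catalytic subunit gene Gclc had levels from 11.68 over a median of 11.80 to 12.33 with DMF+MEF at 6 h, against 10.63, 10.99 and 11.53 with DMF 100. The 12 h levels were 9.86, 9.66, 10.05 and 9.74 with DMF+MEF, against 9.50, 9.54 and 10.11 with DMF 100. Gclc groups were apart at 6 h and mixed at 12 h. Its change was 0.82 ± 0.11 at 6 h (adjusted p = 1.62e-06) and 0.16 ± 0.14 at 12 h (adjusted p = 0.755), and the time difference of -0.66 was just short of the threshold (adjusted p = 0.0503).

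Nqo1, a quinone reductase gene often used to read NRF2 activity, had levels at 6 h from 11.08 over a median of 11.22 to 11.29 with DMF+MEF, against 10.76, 10.89 and 11.21 with DMF 100. Its 12 h levels were 10.41, 10.25, 10.54 and 10.55 with DMF+MEF, against 9.26, 9.76 and 9.92 with DMF 100. The groups overlapped at 6 h and were apart at 12 h. Nqo1 rose by 0.50 ± 0.07 over both times (adjusted p = 9.57e-08), with 0.26 ± 0.08 at 6 h (adjusted p = 0.0849) and 0.73 ± 0.10 at 12 h (adjusted p = 6.47e-07).

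**Figure D1:**
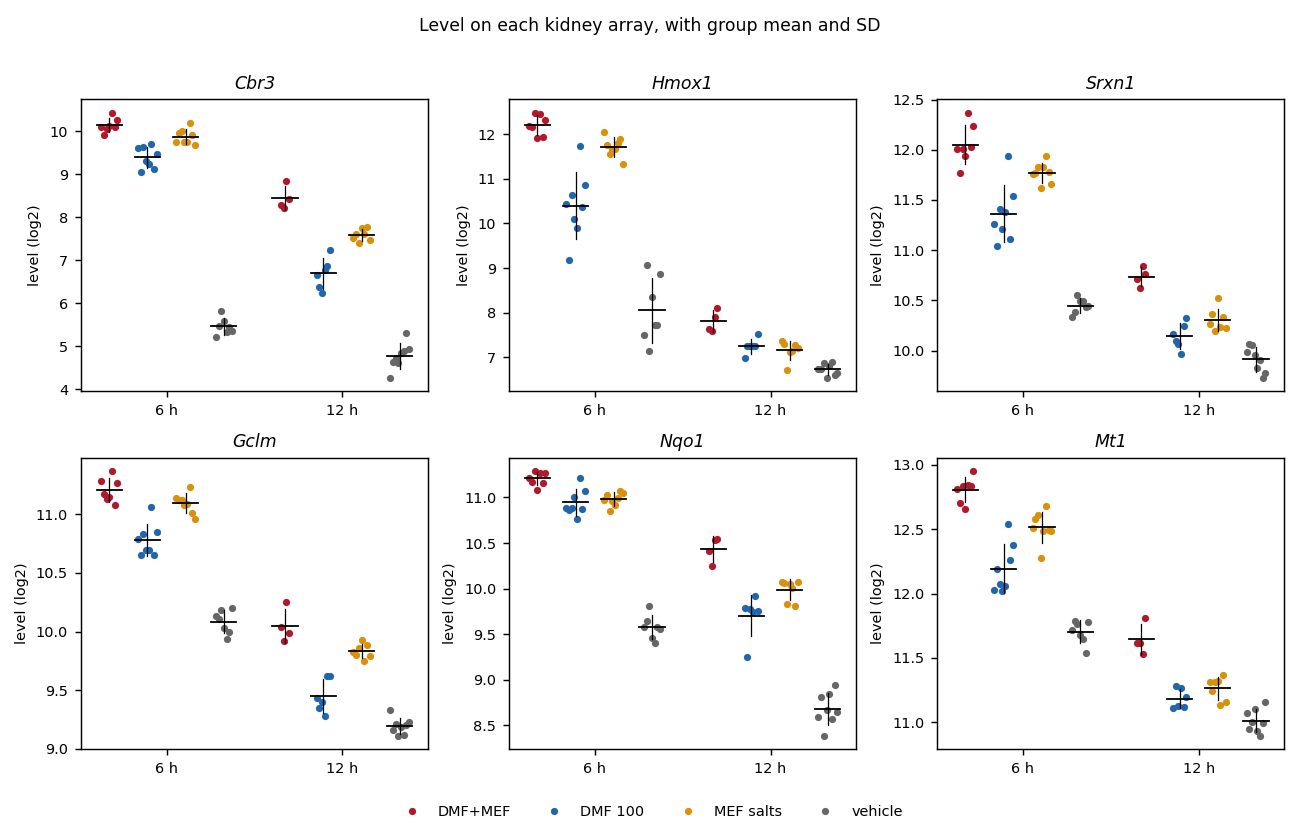
Log2 level on each kidney array of Cbr3, Hmox1, Srxn1, Gclm, Nqo1 and Mt1 for DMF+MEF, DMF 100, MEF salts and vehicle at 6 h and 12 h; each point is 1 animal, and bars give the mean and SD. The DMF+MEF points lie above all DMF 100 points at both times for Cbr3, Hmox1, Gclm and Mt1, and overlap them at 6 h for Srxn1 and Nqo1.

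Other called members covered the same functions. In glutathione transfer, Gstm3 rose by 1.10 ± 0.14 (2.15-fold, mean level 4.70), Gstm1 by 0.28 ± 0.03 and Gsta4 by 0.19 ± 0.03. Gstm3 is a dim gene, with levels at 12 h of 5.49, 6.01, 5.77 and 6.00 with DMF+MEF, against 4.41 to 4.72 with DMF 100. In NADPH supply by the pentose phosphate pathway, Pgd rose by 0.47 ± 0.06 and Tkt by 0.22 ± 0.04. The thioredoxin reductase gene Txnrd1 rose by 0.39 ± 0.04, the biliverdin reductase gene Blvrb by 0.65 ± 0.08, the epoxide hydrolase gene Ephx1 by 0.49 ± 0.05, the aldehyde oxidase gene Aox1 by 0.67 ± 0.15 and the aldehyde dehydrogenase gene Aldh1a7 by 0.83 ± 0.12. The largest adjusted p among these was 0.00334, for Aox1, whose call was lost within places 9 to 12 (0.61, adjusted p = 0.148). Of the 14 members not called, Akr1b8 was at 0.33 ± 0.11 (adjusted p = 0.0773), Abcc4 at 0.20 ± 0.07 (0.117) and Osgin1 at 0.18 ± 0.07 (0.148). Bright members such as the ferritin genes Ftl1 (0.06 ± 0.03) and Fth1 (0.01 ± 0.03) and the catalase gene Cat (0.03 ± 0.05) also missed the threshold. The count of 20 fell to 16 within places 9 to 12 and was 19 to 22 in the other fits of all arrays.

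Genes outside the NRF2 list also stood among the 12 largest called rises above the median level. Whether NRF2 acts on them was not tested. Pir, which encodes pirin, an iron-binding nuclear protein, had levels at 6 h from 6.98 over a median of 7.28 to 7.57 with DMF+MEF, against 6.15, 6.60 and 6.91 with DMF 100. By 12 h the levels were 6.56, 5.99, 6.70 and 6.19 with DMF+MEF, against 5.03, 5.20 and 5.37 with DMF 100. The groups were apart at both times, and Pir rose by 0.92 ± 0.10 (1.90-fold, adjusted p = 1e-09).

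Gbe1, of glycogen branching, had levels from 8.87 over a median of 9.10 to 9.36 with DMF+MEF at 6 h, against 8.39, 8.62 and 8.81 with DMF 100. At the later time its levels were 8.72, 8.90, 9.01 and 8.62 with DMF+MEF, against 7.99, 8.13 and 8.22 with DMF 100. Gbe1 was likewise apart at both times and rose by 0.60 ± 0.06 (adjusted p = 8.56e-11).

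Tnfrsf12a, the receptor gene for the cytokine TWEAK, had levels from 7.59 over a median of 7.74 to 8.47 with DMF+MEF at 6 h, against 6.91, 7.01 and 7.59 with DMF 100. At 12 h its levels were 6.18, 6.13, 6.79 and 6.29 with DMF+MEF, against 5.48, 5.75 and 6.06 with DMF 100. The closest arrays nearly touched at 6 h, and the rise was 0.66 ± 0.10 (adjusted p = 5.26e-06). Klf11, a transcription factor gene, rose by 0.62 ± 0.13 (adjusted p = 0.000857), with 0.17 ± 0.16 at 6 h and 1.08 ± 0.20 at 12 h, though its time difference missed the threshold (adjusted p = 0.0674).

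Calls of Fkbp5 and Depp1 depended on the arrays and the fit. Fkbp5, a glucocorticoid-induced chaperone gene, had levels at 6 h from 8.03 over a median of 8.46 to 10.42 with DMF+MEF, against 7.20, 7.72 and 8.80 with DMF 100. The 12 h levels were 8.05, 6.41, 6.86 and 7.42 with DMF+MEF, against 6.18, 6.65 and 6.82 with DMF 100. Groups overlapped at both times, and 1 DMF+MEF animal at 6 h, animal 84, was far above the others. The call of Fkbp5 was kept without animal 84 and lost without DMF+MEF animal 33 at 12 h. Its change of 0.71 ± 0.18 (adjusted p = 0.0115) lost its call in a fit of only the groups compared (adjusted p = 0.134). Depp1, a target gene of FOXO factors, rose by 0.66 ± 0.20 (adjusted p = 0.0401), with 0.07 ± 0.25 at 6 h and 1.26 ± 0.31 at 12 h, and its call was lost in that fit as well (adjusted p = 0.127).

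**Figure D2:**
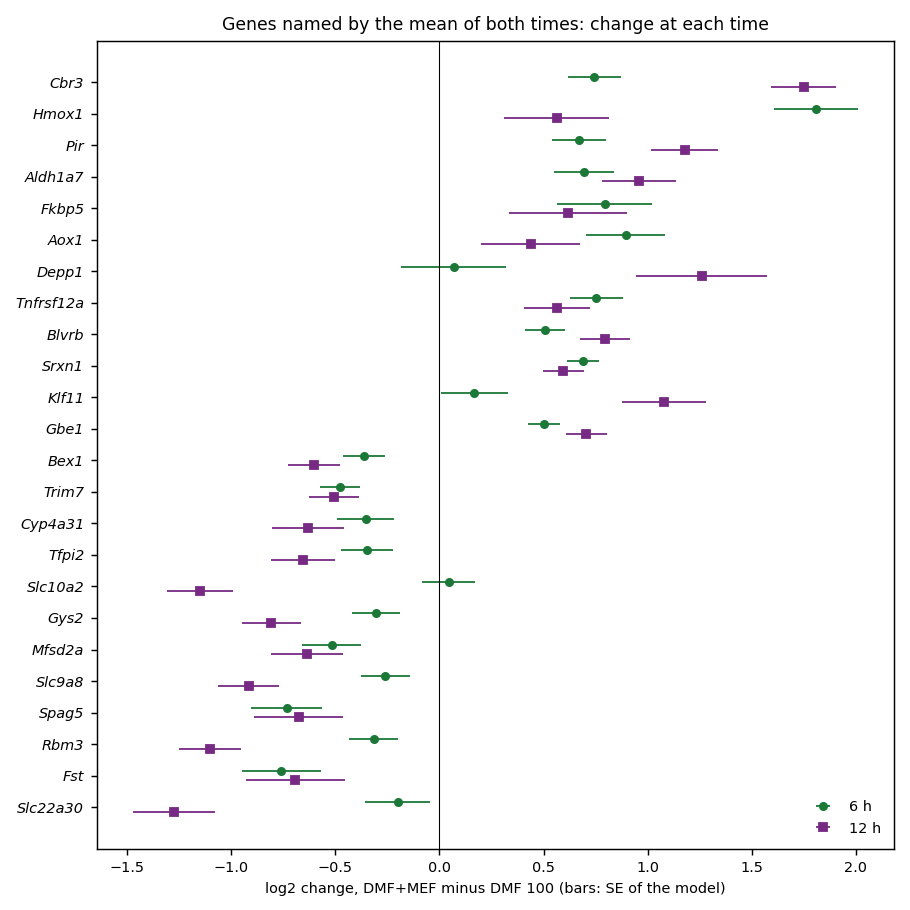
Log2 change, DMF+MEF minus DMF 100, at 6 h and at 12 h of the 12 highest and 12 lowest called genes above the median level; points are model estimates and bars their standard errors. Hmox1 had 1.81 at 6 h and 0.56 at 12 h, Cbr3 0.74 and 1.75, and lower genes such as Slc22a30, Rbm3 and Slc10a2 were at -0.20, -0.32 and 0.04 at 6 h and at -1.28, -1.10 and -1.15 at 12 h.

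The metallothionein gene Mt1 also rose at both times. Mt1, whose protein binds zinc, had levels at 6 h from 12.66 over a median of 12.84 to 12.95 with DMF+MEF, against 12.02, 12.13 and 12.54 with DMF 100. Its 12 h levels were 11.62, 11.62, 11.53 and 11.81 with DMF+MEF, against 11.11, 11.16 and 11.28 with DMF 100. The groups were apart at both times, which 0.123% of all genes showed in this direction. Mt1 rose by 0.54 ± 0.05 (1.45-fold, adjusted p = 1.47e-12). Of 14 measured genes of zinc response and zinc transport 3 rose and 0 fell, beside 2.16% of all genes higher and 2.29% lower, with a list median of -0.03. The others called were the zinc exporter genes Slc30a1 (0.15 ± 0.03, adjusted p = 0.000906) and Slc30a4 (0.13 ± 0.03, adjusted p = 0.0151).

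Of 21 measured calcium and magnesium genes 0 rose and 1 fell, a share near the 2.29% of all genes lower. It was the calcium-binding protein gene Calb1 of the distal tubule (-0.15 ± 0.04, adjusted p = 0.0264). In the vitamin D and phosphate list 2 of 11 rose, beside 2.16% of all genes, both sodium-phosphate carriers: Slc20a1 by 0.44 ± 0.07 (adjusted p = 7.96e-06) and Slc20a2 by 0.28 ± 0.05 (adjusted p = 0.000136). Slc20a1 had levels at 6 h from 9.13 over a median of 9.18 to 9.56 with DMF+MEF, against 8.51, 8.78 and 9.14 with DMF 100, with a narrow overlap.

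The ATF4 program, which cells switch on when amino acids run short or unfolded protein builds up, had members called at 12 h and not at 6 h. At 12 h 5 of 24 were called higher and 0 lower (median 0.14), beside 2.19% of all genes, and at 6 h 0 were called (median 0.01), beside 1.63% of all genes. Over both times the same number, 5, were called (median 0.09). The difference between the times was itself called for 3 of them, Chac1, Atf3 and Trib3, beside 0.924% of all genes. All 3 are dim genes in the kidney, below the median level, with mean levels of 4.24, 3.53 and 3.29.

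Atf3, a transcription factor gene of the stress response, had levels at 6 h from 2.98 over a median of 3.02 to 3.63 with DMF+MEF, against 2.77, 3.04 and 3.76 with DMF 100. By 12 h the levels were 4.73, 4.54, 5.49 and 5.47 with DMF+MEF, against 3.43, 3.56 and 3.56 with DMF 100. The groups covered the same range at 6 h, and at 12 h each of the 4 DMF+MEF animals was above all DMF 100 animals. The change was -0.02 ± 0.19 at 6 h (adjusted p = 1) and 1.52 ± 0.24 at 12 h (adjusted p = 1.32e-05), a time difference of 1.53 ± 0.31 (adjusted p = 0.00365).

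Trib3, a pseudokinase gene, had levels from 2.86 over a median of 2.87 to 3.05 with DMF+MEF at 6 h, against 2.74, 2.86 and 3.12 with DMF 100. At the later time its levels were 4.45, 4.42, 4.79 and 5.34 with DMF+MEF, against 3.11 to 3.42 with DMF 100. Trib3 showed the same picture, overlap at 6 h and separation at 12 h. Its change was 0.00 ± 0.13 at 6 h and 1.44 ± 0.17 at 12 h (adjusted p = 6.28e-09), with a time difference of 1.44 ± 0.21 (adjusted p = 6.95e-05).

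Chac1, which encodes a glutathione-degrading enzyme, had levels from 3.81 over a median of 4.15 to 4.84 with DMF+MEF at 6 h, against 4.07, 4.56 and 5.61 with DMF 100. At 12 h its levels were 4.96, 5.13, 5.44 and 5.25 with DMF+MEF, against 3.09, 3.51 and 3.75 with DMF 100. Chac1 was the gene of the list with the widest time difference, 2.14 ± 0.33 (adjusted p = 8.13e-05), from a change of -0.44 ± 0.21 at 6 h (adjusted p = 0.341) and 1.70 ± 0.26 at 12 h (adjusted p = 5.53e-06). The other called members were Ddit3, which encodes the stress factor CHOP, with 0.44 ± 0.07 over both times (adjusted p = 5.19e-06), and the asparagine synthetase gene Asns, with 0.59 ± 0.13 (adjusted p = 0.00186). Within places 9 to 12 all 5 stayed called over both times, at 0.42 for Ddit3 to 0.76 for Trib3. The test of the time difference called 13 genes in all within those places, against 158 with all arrays. Whether Chac1, Atf3 and Trib3 kept their called time difference there was not checked.

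The promoters of Atf3 and Trib3 are shown by the rule that also picked Cbr3, Gstm3 and Aldh1a7. It took the 5 called response list members with a window and the largest change over both times. The windows, in the same build and of the same span as above, are chr1:191183284-191183583 for Atf3 and chr2:152344011-152344310 for Trib3, both on the minus strand and printed 5′ to 3′ along the gene. Capitals again mark motif matches.
Atf3 promoter: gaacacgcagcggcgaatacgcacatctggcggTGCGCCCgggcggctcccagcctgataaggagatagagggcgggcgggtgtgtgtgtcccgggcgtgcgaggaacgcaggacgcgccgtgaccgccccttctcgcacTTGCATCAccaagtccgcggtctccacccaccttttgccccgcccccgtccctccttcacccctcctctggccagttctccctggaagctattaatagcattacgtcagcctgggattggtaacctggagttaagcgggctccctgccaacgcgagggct
Trib3 promoter: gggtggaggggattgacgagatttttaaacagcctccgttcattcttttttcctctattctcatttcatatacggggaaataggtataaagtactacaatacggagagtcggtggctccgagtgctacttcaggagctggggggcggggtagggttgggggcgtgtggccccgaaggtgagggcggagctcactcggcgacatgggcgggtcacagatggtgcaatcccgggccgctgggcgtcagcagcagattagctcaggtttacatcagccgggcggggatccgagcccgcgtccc

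In the Atf3 window the letters TTGCATCA, whose first base lies 110 bases before the start, are the C/EBP-ATF element read on the opposite strand, and a metal response core lies at 217 bases before the start. In the Trib3 window none of the searched motifs was found. As given above, 0.895% of all windows hold the C/EBP-ATF element.

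Of 19 measured p53 target genes 5 rose and 0 fell (median 0.09), beside 2.16% of all genes higher and 2.29% lower. Gadd45a, a growth arrest gene that ATF4 signalling can also induce, had levels at 6 h from 10.39 over a median of 10.49 to 10.61 with DMF+MEF, against 10.28, 10.46 and 10.77 with DMF 100. The 12 h levels were 10.77, 10.68, 10.88 and 11.02 with DMF+MEF, against 10.00, 10.13 and 10.31 with DMF 100. The DMF+MEF animals lay inside the DMF 100 range at 6 h and above it at 12 h. Gadd45a changed by 0.01 ± 0.07 at 6 h and by 0.69 ± 0.09 at 12 h (adjusted p = 3.32e-07), a time difference of 0.68 ± 0.12 (adjusted p = 0.000585). The cell cycle inhibitor gene Cdkn1a rose by 0.50 ± 0.14 over both times (adjusted p = 0.0208), and the p53 ubiquitin ligase gene Mdm2 by 0.17 ± 0.04 (adjusted p = 0.00109).

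Heat shock genes moved in both directions, with 2 of 11 called higher and 2 lower, beside 2.16% and 2.29% of all genes, and a list median of -0.03. Hsp90aa1, the inducible cytosolic HSP90 gene, rose by 0.43 ± 0.06 (adjusted p = 8.35e-07). Its levels at 6 h ran from 10.79 over a median of 11.05 to 11.39 with DMF+MEF, against 10.29, 10.58 and 10.98 with DMF 100. Its levels at 12 h were 10.63, 10.65, 10.81 and 10.71 with DMF+MEF, against 10.14, 10.22 and 10.58 with DMF 100. Hspa1b, an inducible HSP70 gene, fell by 0.35 ± 0.10 (adjusted p = 0.0327), and the constitutive Hspa8 fell by 0.15 ± 0.04 (adjusted p = 0.0308). The difference at 12 h minus that at 6 h was negative for all 11 of these genes, with a median of -0.25. It was called for 2, beside 0.556% of all genes called with a negative difference.

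Several transporter genes of the kidney fell, most clearly at 12 h. Of 25 measured organic anion and cation transporter genes 6 fell and 1 rose, beside 2.29% and 2.16% of all genes, with a median of -0.09. Slc22a30, a member of the organic anion transporter family, had levels at 12 h of 5.69, 6.45, 5.96 and 5.29 with DMF+MEF, against 6.64, 7.22 and 7.41 with DMF 100. At 6 h they ran from 7.43 over a median of 7.68 to 8.05 with DMF+MEF, against 7.42, 7.98 and 8.28 with DMF 100. All 4 DMF+MEF animals were below the DMF 100 animals at 12 h, and the ranges overlapped at 6 h. Slc22a30 fell by 0.74 ± 0.13 over both times (0.599-fold, adjusted p = 3.7e-05), with -0.20 ± 0.16 at 6 h and -1.28 ± 0.20 at 12 h.

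Slc10a2, the sodium-dependent bile acid transporter gene, had levels at 6 h from 9.85 over a median of 10.10 to 10.35 with DMF+MEF, against 9.73, 10.09 and 10.36 with DMF 100. Its 12 h levels were 7.28, 7.94, 7.47 and 7.24 with DMF+MEF, against 8.20, 8.63 and 9.29 with DMF 100. The 6 h ranges were nearly the same, and at 12 h the groups were apart. Slc10a2 changed by 0.04 ± 0.13 at 6 h and by -1.15 ± 0.16 at 12 h (adjusted p = 4e-07), a time difference of -1.20 ± 0.20 (adjusted p = 0.000284).

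The others that fell were Slc22a7 (described with the tubule markers), the carnitine transporter gene Slc22a5 (-0.34 ± 0.06), Slc22a13 (-0.20 ± 0.05) and Slc22a19 (-0.16 ± 0.05). The member that rose was Abcc2, the apical export pump gene for glutathione and glucuronide conjugates, by 0.38 ± 0.05 (adjusted p = 1.19e-06). Abcc2 had levels from 11.45 over a median of 11.65 to 11.76 with DMF+MEF at 6 h, against 11.04, 11.27 and 11.43 with DMF 100. By 12 h the levels were 9.95, 10.14, 10.37 and 10.34 with DMF+MEF, against 9.63, 9.80 and 9.89 with DMF 100. Abcc2 was apart at both times. The time difference was called lower for 5 of the 25 transporter genes, beside 0.556% of all genes.

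Proximal tubule markers fell by small amounts. Of 16 measured 10 were called lower and 0 higher, beside 2.29% of all genes called lower, with a median of -0.11, and 7 were called lower at 12 h (median -0.19, beside 2.08% of all genes) and 1 at 6 h (median -0.03, beside 0.655%). Slc22a7, which encodes organic anion transporter OAT2, had levels at 6 h from 10.76 over a median of 10.87 to 11.26 with DMF+MEF, against 10.54, 11.02 and 11.05 with DMF 100. At the later time its levels were 9.71, 9.82, 9.25 and 9.15 with DMF+MEF, against 10.22, 10.28 and 10.58 with DMF 100. The 12 h groups did not overlap, and Slc22a7 changed by -0.84 ± 0.11 there (adjusted p = 8.38e-08) and by 0.03 ± 0.09 at 6 h. In this bulk tissue, fewer cells of a type and less RNA per cell cannot be told apart.

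Kap, the kidney androgen-regulated protein gene and one of the brightest kidney transcripts, had levels at 12 h of 12.86, 13.14, 12.94 and 12.94 with DMF+MEF, against 13.20, 13.23 and 13.29 with DMF 100. At 6 h both groups lay between 13.63 and 13.75. Kap was called at 12 h, with a change of -0.26 ± 0.04 (adjusted p = 5.65e-06), and the time difference was called (adjusted p = 0.00269). Miox, the myo-inositol oxygenase gene, fell by 0.08 ± 0.01 over both times (adjusted p = 6.79e-05), with levels at 12 h of 12.46, 12.55, 12.54 and 12.54 with DMF+MEF, against 12.57, 12.60 and 12.64 with DMF 100. Further members that fell were the sodium-glucose transporter genes Slc5a1 (-0.27 ± 0.07) and Slc5a2 (-0.15 ± 0.04), the water channel gene Aqp1 (-0.11 ± 0.03) and the cubilin gene Cubn (-0.10 ± 0.03). The main renal anion uptake genes Slc22a6 and Slc22a8 were at 0.04 ± 0.04 and -0.09 ± 0.04 and not called.

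The mean level of the 16 tubule markers per array at 12 h was 10.11 to 10.25 (median 10.16) with DMF+MEF, against 10.32 to 10.49 (median 10.36) with DMF 100, without overlap. At 6 h it was 10.88 to 11.02 with DMF+MEF, against 10.92 to 11.04 with DMF 100, with overlap. For other groups at 12 h the range was 10.17 to 10.28 with MEF salts, 10.11 to 10.28 in undosed mice and 10.30 to 10.43 with vehicle. The undosed animals covered the same range as the DMF+MEF animals. The count of called tubule markers depended on which arrays were used: it was 4 within places 9 to 12, 6 without DMF+MEF animal 33 at 12 h and 12 with place in the fit, and Slc22a7 was at -0.44 within places 9 to 12 (adjusted p = 0.0544).

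Markers of other nephron segments each had at most 1 called member, always lower, beside 2.29% of all genes called lower. Aqp4, a water channel gene of collecting duct principal cells, had levels at 12 h of 9.23, 9.33, 8.76 and 8.87 with DMF+MEF, against 9.46, 9.84 and 10.01 with DMF 100, and fell by 0.34 ± 0.08 over both times (adjusted p = 0.00628). With the mean of all its probe sets Aqp4 was at -0.14 (adjusted p = 0.253). The others lower were Foxi1 of intercalated cells (-0.35), Calb1 of the distal tubule, Kcnj1 of the loop of Henle (-0.14) and Clic5 of podocytes (-0.09). Of the endothelial, macrophage, lymphocyte, neutrophil, smooth muscle, adrenal, pancreas, red cell and adipocyte markers 0 were called by limma, beside 4.45% of all genes. The adipocyte mean per array varied widely, from 5.94 to 8.91 with DMF+MEF against 5.49 to 8.64 with DMF 100 at 6 h, and from 5.49 to 7.98 against 6.29 to 8.26 at 12 h. Its part in the results was not tested.

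**Figure D3:**
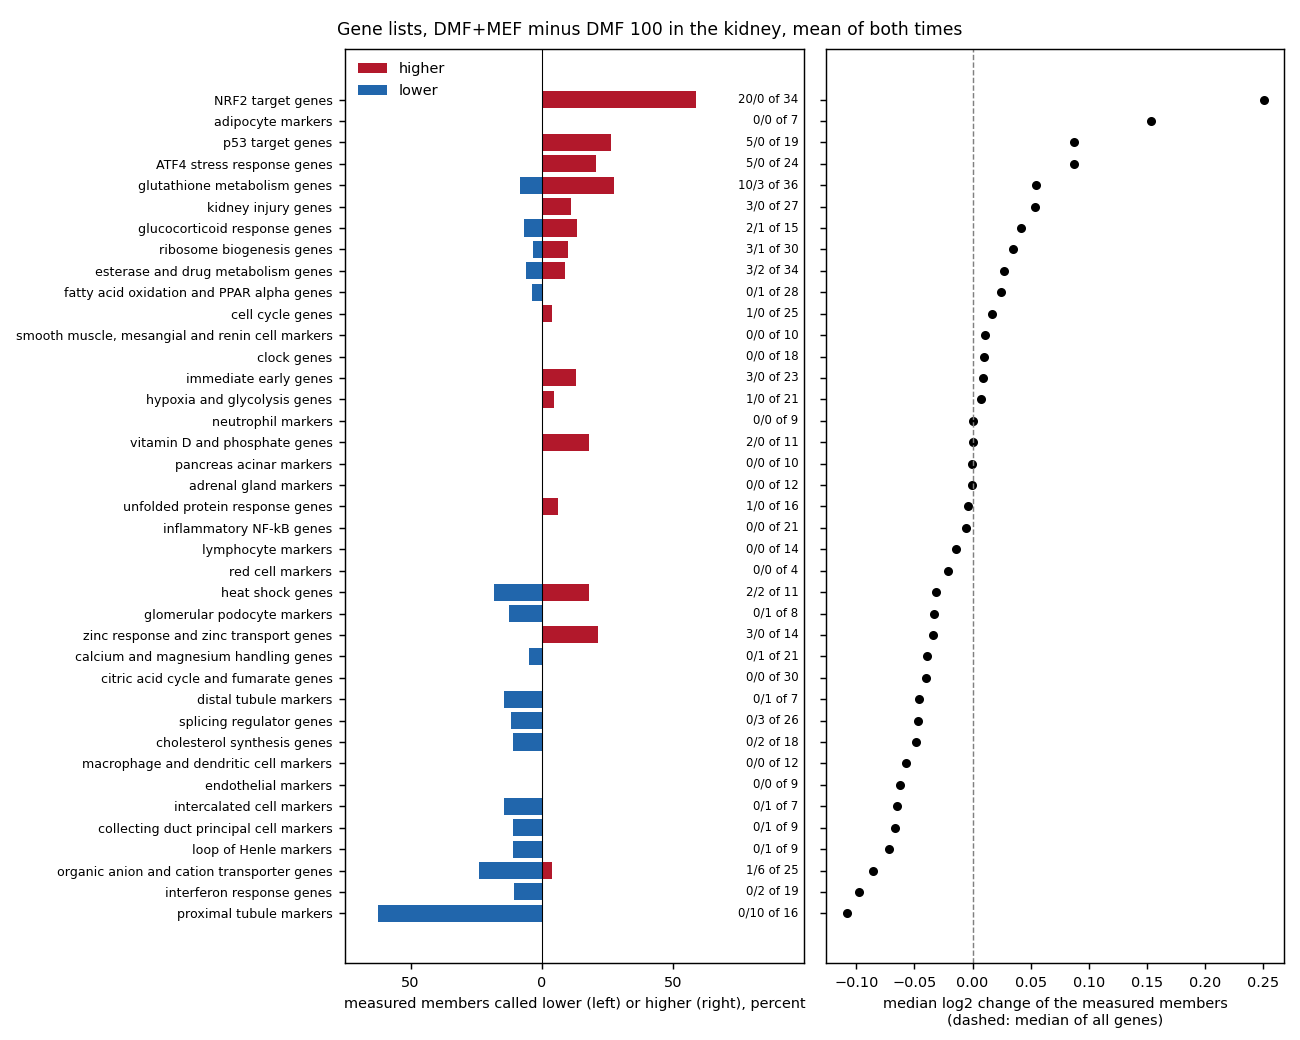
Percent of measured members called lower and called higher for each gene list, and the median log2 change of the list, DMF+MEF minus DMF 100, mean of both times. The NRF2 list had 20 of 34 members higher and the proximal tubule list 10 of 16 lower, with medians of 0.25 and -0.11.

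Among the 12 largest called falls above the median level, Rbm3, a cold-inducible RNA-binding protein gene, had levels at 12 h of 5.08, 4.94, 4.93 and 4.63 with DMF+MEF, against 5.81, 6.00 and 6.25 with DMF 100. At 6 h they ran from 6.65 over a median of 6.89 to 7.32 with DMF+MEF, against 6.92, 7.20 and 7.64 with DMF 100. Rbm3 was apart at 12 h, fell by 0.71 ± 0.10 over both times (adjusted p = 1.77e-07) and differed between the times by -0.79 ± 0.19 (adjusted p = 0.0221). Fst, which encodes the activin inhibitor follistatin, fell by 0.73 ± 0.15 (adjusted p = 0.00104), with -0.76 ± 0.19 at 6 h and -0.69 ± 0.24 at 12 h. The others were the mitotic spindle gene Spag5 (-0.71), the sodium-proton exchanger gene Slc9a8 (-0.59), the lysophospholipid transporter gene Mfsd2a (-0.58), the liver-type glycogen synthase gene Gys2 (-0.56), the protease inhibitor gene Tfpi2 (-0.50), the fatty acid hydroxylase gene Cyp4a31 (-0.49), the ubiquitin ligase gene Trim7 (-0.49) and Bex1 (-0.48). Mfsd2a, Trim7 and Bex1 were called lower at both times.

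Few genes were called at each time separately in the same direction. The test at 6 h called 278 genes, 166 higher and 112 lower, with 2220 at an unadjusted p below 0.05. The test at 12 h called 729 (4.26%), 374 higher and 355 lower (502 and 235 after a further quantile normalization), with 2659 unadjusted. Both tests called 48 genes higher and 16 lower, and 1 gene in opposite directions, the cyclophilin gene Ppid (named after its values had been seen), with 0.23 at 6 h (adjusted p = 0.0409) and -0.25 at 12 h (adjusted p = 0.0466). Above every DMF 100 array at both times were 21 genes, and below at both times 0.

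The test of the time difference itself called 158 genes (0.924%), 63 with a larger and 95 with a smaller value at 12 h, with 1792 unadjusted, and 93 and 68 after a further quantile normalization. The largest positive values above the median level were those of Cbr3, Hsf2bp (0.84 ± 0.16), Igfbp1 (0.75 ± 0.17), Akr1c12 (0.75 ± 0.18) and Bco2 (0.72 ± 0.13). Igfbp1, which encodes an insulin-like growth factor binding protein, had levels at 12 h of 10.24, 10.55, 10.45 and 10.58 with DMF+MEF, against 9.59, 9.73 and 10.24 with DMF 100, where 1 DMF 100 animal reached the lowest DMF+MEF level, and its change at 6 h was -0.08 ± 0.11. The largest negative values were those of Sec14l3 (-1.87 ± 0.43), Ces2b (-1.82 ± 0.43), Hmox1, Slc10a2 and Slc22a30. In a fit of only the groups compared the calls of Sec14l3 (adjusted p = 0.0652), Ces2b (0.0806) and Slc22a30 (0.0731) were lost as well as that of Hmox1. Without DMF+MEF animal 36 at 12 h the calls of Igfbp1 (adjusted p = 0.0501), Akr1c12 (0.0613), Sec14l3 (0.0838), Ces2b (0.0742) and Slc22a30 (0.0904) were lost, and without animal 33 those of Ces2b (0.0504), Hmox1 (0.0812) and Slc22a30 (0.0504).

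Sec14l3, a lipid-binding protein gene, had levels at 6 h from 9.77 over a median of 9.94 to 10.39 with DMF+MEF, against 8.47, 9.57 and 10.11 with DMF 100. At 12 h its levels were 7.84, 8.34, 6.98 and 6.41 with DMF+MEF, against 8.39, 8.61 and 9.28 with DMF 100. Its changes were 0.55 ± 0.27 at 6 h (adjusted p = 0.358) and -1.32 ± 0.33 at 12 h (adjusted p = 0.0112), and those of the carboxylesterase gene Ces2b were 0.57 ± 0.27 (adjusted p = 0.346) and -1.25 ± 0.34 (adjusted p = 0.0182). Within places 9 to 12 all 10 of these time differences kept their sign and lost their call, with adjusted p between 0.0733 and 0.245.

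MEF salts alone, set against vehicle, give a second measure of the salts that shares no array with the first. The difference between them, tested as an interaction, asks whether the salts moved a gene on top of DMF as far as they did alone, with 0 meaning equal steps on the log2 scale. It called 39 genes (0.228%), 4 with a larger step on top of DMF (0.0234%) and 35 with a smaller one (0.205%), with 1012 at an unadjusted p below 0.05. NRF2 targets made up 12 of the 35, out of 34 measured, and the median of that list was -0.23. Animals of the MEF and vehicle groups held places 1 to 8, so place differs between the compared steps. The count was 38 with a line for place and 47 with a line and a square. Such a fit cannot fully separate place from treatment here, because the MEF and vehicle groups had no animals at places 9 to 12. The part of place in these calls was not tested. Without the vehicle kidney that was high for adrenal markers the count was 35, of which 34 were also called with all arrays. Again 12 NRF2 targets were called lower, with Cbr3 at -2.36.

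Cbr3 had the largest such difference. Its step was 1.25 ± 0.10 on top of DMF and 3.61 ± 0.09 with MEF salts alone, a difference of -2.37 ± 0.14 (adjusted p = 2.3e-22). At 6 h its mean level was 10.14 ± 0.16 (SD) with DMF+MEF (n = 7), 9.87 ± 0.17 with MEF salts (n = 8), 9.39 ± 0.25 with DMF 100 (n = 8) and 5.46 ± 0.20 with vehicle (n = 7). At 12 h it was 8.44 ± 0.27 with DMF+MEF (n = 4), 7.59 ± 0.14 with MEF salts (n = 7), 6.69 ± 0.36 with DMF 100 (n = 6) and 4.78 ± 0.30 with vehicle (n = 8). At both times the order was the same, with DMF+MEF highest and vehicle far below the rest.

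Nqo1 rose by 0.50 ± 0.07 on top of DMF and by 1.35 ± 0.06 with MEF salts alone (difference -0.86 ± 0.09, adjusted p = 4.73e-11). Pgd rose by 0.47 ± 0.06 on top of DMF and by 1.23 ± 0.06 alone (difference -0.76 ± 0.08, adjusted p = 9.06e-10). Gstp1, a glutathione transferase gene, rose by 0.29 ± 0.03 on top of DMF and by 0.92 ± 0.03 alone (difference -0.63, adjusted p = 1.94e-18). The export pump gene Abcc4 was at 0.20 ± 0.07 on top of DMF, not called, and rose by 1.06 ± 0.06 with MEF salts alone. Likewise the glutamine transporter gene Slc38a3 was at 0.07 ± 0.10 on top of DMF, not called, and rose by 1.01 ± 0.09 alone. The median level of Slc38a3 at 6 h was 7.43 with DMF+MEF, 7.43 with MEF salts, 7.44 with DMF 100 and 6.33 with vehicle, so that only the vehicle group stood apart. The estimate of the difference was negative for 31 of the 34 NRF2 genes.

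Mt1, Blvrb and Hsp90aa1 took steps of like size in both settings. Mt1 rose by 0.54 ± 0.05 on top of DMF and by 0.53 ± 0.04 with MEF salts alone, and the difference of 0.00 ± 0.07 had a 95% interval of -0.13 to 0.14. Blvrb was at 0.65 ± 0.08 on top of DMF and 0.70 ± 0.07 alone, and Hsp90aa1 at 0.43 ± 0.06 on top of DMF and 0.50 ± 0.05 alone. For Hmox1 the difference of -0.87 ± 0.22 missed the threshold (adjusted p = 0.0553). The stress gene Atf3 was at 0.75 ± 0.15 on top of DMF and -0.03 ± 0.14 with MEF salts alone, and its difference of 0.78 ± 0.21, with a 95% interval of 0.37 to 1.19, was not called after adjustment (adjusted p = 0.0971). The 4 genes with a larger value on top of DMF were Dzank1 (0.43 ± 0.09), Clrn3 (0.21 ± 0.05), Snhg6 (0.20 ± 0.05) and the clone-named 2410006H16Rik (0.31), the last chosen after its value had been seen. Dzank1 was at -0.17 ± 0.07 on top of DMF, not called, and fell by 0.60 ± 0.06 with MEF salts alone, and Clrn3 was at 0.02 ± 0.03 on top of DMF, not called, and fell by 0.19 ± 0.03 alone. The call for Snhg6 was lost with a further quantile normalization and with place in the fit.

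**Figure D4:**
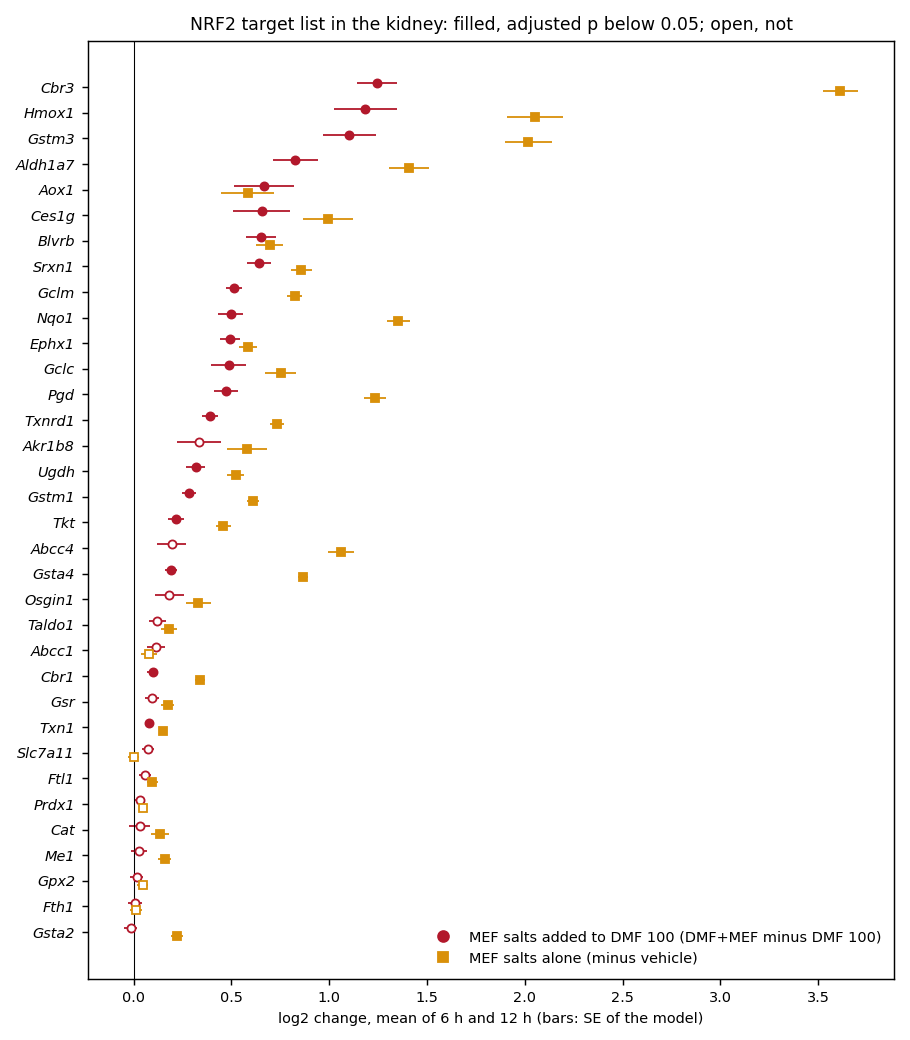
Log2 change of each NRF2 list member when MEF salts were added to DMF (red circles, DMF+MEF minus DMF 100) and with MEF salts alone (orange squares, MEF salts minus vehicle), both averaged over 6 h and 12 h, with standard errors; each row is 1 gene, and filled marks had an adjusted p below 0.05. Cbr3 has the widest gap between its marks, 1.25 on top of DMF and 3.61 with MEF salts alone.

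Raising DMF instead of adding MEF salts gives a comparison at the same total mass of agents, 179.2 mg/kg. The mass of the salts includes their metal cations. The agents are not at equal moles, and place is not balanced between the groups. DMF+MEF animals held places 1, 3, 4 and 9 to 12 at 6 h and only 9 to 12 at 12 h. DMF 179.2 animals held places 5 to 12 at each time. This comparison uses the same DMF+MEF arrays as the main one. It called 1290 genes (7.55%), 384 higher with DMF+MEF (2.25%) and 906 lower (5.3%), with 3702 unadjusted, and 466 higher and 531 lower after a further quantile normalization. In the NRF2 list 12 of 34 were higher with DMF+MEF and 0 lower, with a median of 0.09 against 0.00 over all genes.

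Cbr3 was higher with DMF+MEF than with DMF 179.2 by 0.52 ± 0.10 (adjusted p = 0.000508), Srxn1 by 0.33 ± 0.06 (adjusted p = 0.000384), Gclm by 0.31 (adjusted p = 2.78e-06), Mt1 by 0.23 ± 0.05 (adjusted p = 0.00128) and Hsp90aa1 by 0.33 ± 0.06 (adjusted p = 0.000384). Pgd and Blvrb were not called, at 0.08 ± 0.06 and 0.15 ± 0.08. Hmox1 was at 0.37 ± 0.16 (adjusted p = 0.136), with a 95% interval of 0.06 to 0.69. For the stress genes the values were 0.01 ± 0.15 for Atf3 (95% interval -0.29 to 0.31), -0.30 ± 0.16 for Chac1 (-0.62 to 0.03) and 0.33 ± 0.10 for Trib3 (adjusted p = 0.0338). Among the lower genes Trim7 was at -0.54 ± 0.07 (adjusted p = 3.87e-06), Fst at -0.77 ± 0.15 and Slc22a30 at -0.69 ± 0.12, all lower with DMF+MEF.

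Tra2b, a splicing regulator gene shown by place, was at -0.21 ± 0.20 in the main comparison (adjusted p = 0.687) and at 0.08 within places 9 to 12. Its levels at 12 h were 4.30, 4.19, 4.07 and 3.27 with DMF+MEF, against 3.25, 4.10 and 5.33 with DMF 100, so the DMF+MEF animals lay inside the wider DMF 100 range. With place as a line in the fit the main comparison called 1320 genes, 459 higher and 861 lower, and within places 9 to 12 it called 433, 208 higher and 225 lower. The 12 h comparison was at 529 within those places, where the groups have equal places, and the 6 h one at 35.

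**Figure D5:**
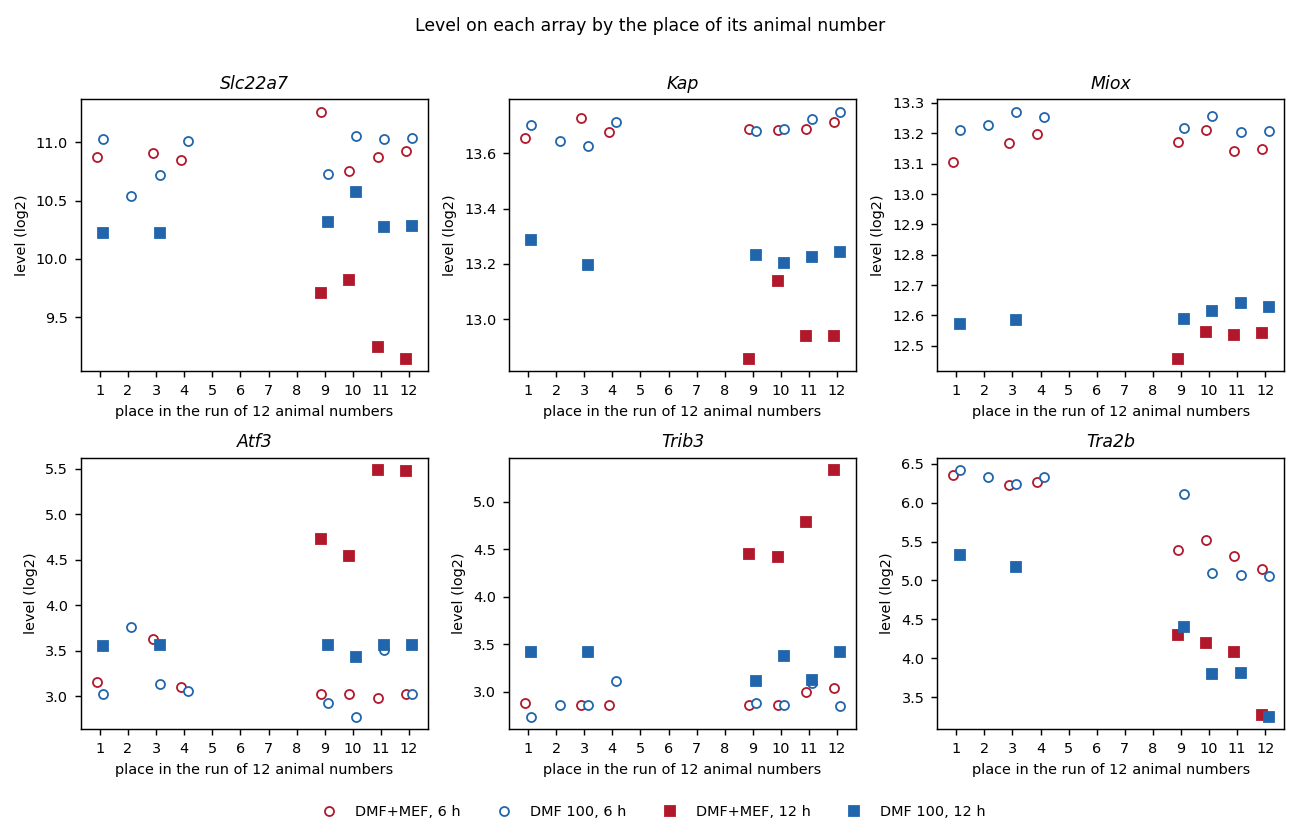
Log2 levels of Slc22a7, Kap, Miox, Atf3, Trib3 and Tra2b on each array by the place of the animal number, for DMF+MEF and DMF 100 at 6 h and 12 h. At 12 h all DMF+MEF animals hold places 9 to 12 and lie below the DMF 100 animals of the same places for Slc22a7, Kap and Miox and above them for Atf3 and Trib3.

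The same addition in the other organs called fewer genes. Each treatment had 8 to 16 arrays there, summed over 6 h and 12 h. The kidney had 7 and 4 arrays with DMF+MEF and 8 and 6 with DMF 100 at those times. The counts were 45 in the jejunum (0.263%), 295 in the mesenteric lymph node (1.73%) and 13 in the inguinal lymph node (0.0760%). The spleen had 174 (1.02%), the brain 14 (0.0819%) and whole blood 1 (0.00585%). Of the 34 NRF2 genes 1, 2, 0, 3, 0 and 0 were called higher in those organs, in that order. Of all 17097 genes 12, 78, 1, 126, 5 and 0 were called higher there. Differences between organs were not tested. In the jejunum Cbr3 rose by 1.45 (adjusted p = 0.0136). In the mesenteric lymph node Nqo1 rose by 0.46, Klf11 by 0.28 and Pir by 0.24, while Rbm3 fell by 0.33 and Ddit3, which rose in the kidney, fell by 0.15. In the spleen Aox1 rose by 0.57 and Ephx1 by 0.22, while Rbm3 fell by 0.50 and Hsp90aa1, which rose in the kidney, fell by 0.29. The gene called in whole blood was the heat shock gene Hsph1, which was lower, named after its value had been seen, with 804 genes at an unadjusted p below 0.05.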

How the data were processed

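Expression was measured on microarrays, 1 per animal and organ. The deposited values of the authors were log2 levels per probe set, and the submitters' processing notes name RMA, GCRMA, R 2.11.1 and limma 3.4.5 without giving their roles. The lowest value, a floor of 2.16 at 6 h and 2.23 at 12 h, held 22.1% and 20.8% of all values, so changes of genes near it are compressed. The floor differed between organs and times, so levels were compared only within an organ and time. Of 45141 probe sets 28898 carried 1 gene, and the probe set with the highest mean level stood for each of 17097 genes.

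limma 3.58.1 (R 4.3.3) fitted all 11 kidney groups in 1 model, with Benjamini-Hochberg adjustment over all genes. In data simulated for the main comparison over 17097 genes, 86% of genes changed 1.25-fold and 98% of those changed 1.5-fold were recovered, with 10 false among 202 calls. The simulation changed 50 genes at each size and none by less than 1.25-fold. Changes as small as the median of the real calls, 0.20 on the log2 scale, were therefore not tested. Named genes were the 12 highest and 12 lowest called genes above the median level, 5 per direction for the time difference and for the comparison with MEF salts alone, and list members. The 39 gene lists, the members and these rules were chosen with earlier results of these data known. Alternatives were a further quantile normalization, leaving out dim genes, a variance trend with robust moderation, a model restricted to the compared groups, the mean of probe sets, place as a covariate, only places 9 to 12, and leaving out single arrays. Leaving out arrays of groups other than DMF+MEF at 12 h, vehicle animal 2 included, and the counts of list members under each alternative, were added after seeing the data.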

Additional observations from a re-analysis of the deposited data

Results flagged for a closer look

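In 248 groups of 4 to 8 arrays of named genes, 18 had an array whose gap to its neighbour exceeded Dixon's 95% limit, which chance alone passes in about 1 of 20 groups. Among DMF+MEF kidneys at 6 h, Fkbp5 was 10.42 in animal 84 (others 8.03 to 8.66), which was also high for Trim7 at 7.88. Animal 87 of that group was low for Cyp4a31 at 6.11 and for Mfsd2a at 6.44 and high for Gclc at 12.33. Atf3 was 3.63 in animal 89, Fst 7.71 in animal 86 and Slc22a7 11.26 in animal 83. Among DMF+MEF kidneys at 12 h, animal 33 stood apart for Bex1 at 5.08, for Cyp4a31 at 4.97 and for Miox at 12.46.

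Among DMF 100 kidneys at 6 h, Fkbp5 was 8.80 in animal 65, Bco2 6.44 in animal 64 and Dzank1 7.83 in animal 60. Among DMF 100 kidneys at 12 h, animal 10 was low for Atf3 at 3.43 and for Nqo1 at 9.26 and high for Slc22a7 at 10.58, and Igfbp1 was 10.24 in animal 9.

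For 20 named genes the change at 12 h differed from that at 6 h by limma's test of the difference. The alternative fits of this difference were read for only 10 of them, the genes named by that test. The 12 h change was the larger for Chac1 (2.14), Atf3 (1.53), Trib3 (1.44), Cbr3 (1.01), Hsf2bp (0.84), Igfbp1 (0.75), Akr1c12 (0.75), Bco2 (0.72), Gadd45a (0.68), Ephx1 (0.39) and Gstp1 (0.30). It was the smaller or more negative for Sec14l3 (-1.87), Ces2b (-1.82), Hmox1 (-1.25), Slc10a2 (-1.20), Slc22a30 (-1.07), Slc22a7 (-0.86), Rbm3 (-0.79), Aqp4 (-0.75) and Kap (-0.26).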

How the results depend on the processing

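No named gene that was called changed sign under any alternative run. Tra2b, not called in any, was at -0.21 with all arrays and at 0.02, 0.02 and 0.08 with a line for place, with a line and a square, and within places 9 to 12. Counts of called genes moved most with which arrays entered. A fit of only the groups compared called 480 genes over both times (243 higher), 57 at 6 h, 75 at 12 h, 54 for the time difference and 602 against DMF 179.2. A line for place gave 1320 over both times, 1171 at 12 h (426 higher, 745 lower) and 253 for the time difference. A line and a square gave 1478, 440 at 6 h, 1314 at 12 h (479 higher, 835 lower) and 311. Only places 9 to 12 gave 433, 35 at 6 h and 13 for the time difference. There 7 named calls were lost, those of Fkbp5, Aox1, Depp1, Spag5, Mfsd2a, Slc22a7 and Aqp4.

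Leaving out single arrays gave 605 to 942 over both times and 151 to 333 at 6 h, with 151 without DMF+MEF animal 87 and 178 without DMF 100 animal 60. At 12 h it gave 465 to 879, with 465 without DMF+MEF animal 33 and 473 without animal 36. The time difference had 93 to 227 (93 without animal 33, 95 without animal 36). The comparison with MEF salts alone had 28 to 55 and that with DMF 179.2 had 826 to 1346 (826 without animal 36). In these comparisons with MEF salts alone and DMF 179.2, only the 4 DMF+MEF arrays at 12 h and vehicle animal 2 were left out. Depp1 lost its call without any of several single arrays. Leaving out dim genes shifted the split to 369 higher and 535 lower over both times and to 290 and 431 at 12 h.

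In the other organs, leaving out dim genes and a line for place gave 106 and 83 calls in the jejunum, 292 and 425 in the spleen, 22 and 66 in the brain and 2 and 2 in whole blood. A line for place gave 451 in the mesenteric and 34 in the inguinal lymph node. No paired analysis was possible because each animal number belongs to 1 group only. The floor limits what can be read of dim genes such as Atf3, Trib3 and Slc7a11.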

Other observations

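Interferon response genes and cholesterol synthesis genes each had 2 members called lower and 0 higher when MEF salts were added to DMF, of 19 and 18 measured, beside 2.29% of all genes lower. They were the guanylate-binding protein gene Gbp3 (-0.44) and the immunity-related GTPase gene Irgm1 (-0.28), and the sterol pathway genes Hmgcs1 (-0.21) and Cyp51 (-0.22). Of 26 splicing regulator genes 3 were called lower, Rbm3, Srsf10 and Hnrnpa2b1, and 0 higher. Of 30 ribosome biogenesis genes Nop56, Fbl and Wdr12 were called higher and Polr1c lower, beside 2.16% and 2.29% of all genes. Clock genes, inflammatory NF-kB genes and citric acid cycle genes had 0 of 18, 21 and 30 members called by limma, beside 4.45% of all genes.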
